A study of Mus musculus with 32 samples.

Results

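Rosiglitazone (RSG), a synthetic agonist of the nuclear receptor PPARγ, was tested here in macrophages grown from bone marrow with IL-4, from mice that keep 1 intact Pparg allele. These are 8 of the 32 arrays of the series, chosen by their labels: genotype PPARg +/-LysCre, cells labelled IL-4 macrophage, 4 arrays of vehicle-treated cells and 4 of RSG-treated cells, with 1 array of each kind from each of mice 1 to 4. Bone marrow from the femurs of C57Bl/6 mice was cultured for 9 days with 20 ng/ml M-CSF and 20 ng/ml IL-4, plus either 1 µM RSG or its DMSO and ethanol vehicle. All 4 mice carry a null Pparg allele beside the intact one, and the LysCre transgene, which expresses Cre from the lysozyme M locus in myeloid cells, so that vehicle and RSG arrays share genotype, Cre and cytokines and differ in RSG alone. The other arrays that are referred to below are macrophages of Pparg fl/- LysCre mice, whose remaining floxed allele Cre can delete in myeloid cells, and immature dendritic cells (iDCs) of both genotypes, 4 vehicle and 4 RSG arrays each. All of these cells, iDCs included, were likewise cultured for 9 days with 20 ng/ml IL-4, with 1 µM RSG in the RSG arrays. M-CSF is given for the macrophages alone. The ages of the mice are not given in the sources used here.

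PPARγ binds DNA as a partner of the retinoid X receptor and turns on genes of lipid uptake, storage and oxidation once a ligand is bound. IL-4 drives the alternative activation of macrophages, a state marked by lectins, chitinase-like proteins, chemokines and RNases. In macrophages PPARγ is known both for its lipid targets and for dampening inflammatory gene expression.

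RSG raised the eosinophil-associated RNase gene Ear1 3.36-fold, and raised the transcription factor gene Cebpb and the cytokine gene Tnfsf13 by about 1.5-fold each. It lowered Sfrp4, which encodes a secreted antagonist of Wnt proteins, by a fitted 9.06-fold, and lowered Epdr1, which encodes a secreted ependymin-related protein, 2.53-fold. Across the array 527 of 14353 tested probes were called, which is 3.67% of those tested: 217 (1.51%) were higher and 310 (2.16%) lower with RSG. A probe was called where limma's moderated test with the mouse as a block gave a Benjamini-Hochberg adjusted p under 0.05 and the change was at least 1.5-fold. With no fold threshold 897 probes (6.25%) passed, 403 higher and 494 lower. A probe was tested where its signal-to-noise ratio (S/N) was 3 or more on at least 3 of 4 arrays of either group, and a value with such an S/N is called detected below. Of the 527 called probes, 526 changed in the same direction in all 4 mice, as did 31.2% of all probes tested. The 4 vehicle and 4 RSG values did not overlap for 449 of the 527, against 12.4% of all probes tested; both counts follow in part from the call itself. When arrays were scaled on their medians in place of quantile normalization, the median change of all probes moved from -0.028 to -0.188 (log2) and 139 probes were called higher and 570 lower, so that the share of rises among the calls went from 41.2% to 19.6%.

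**Figure D1:**
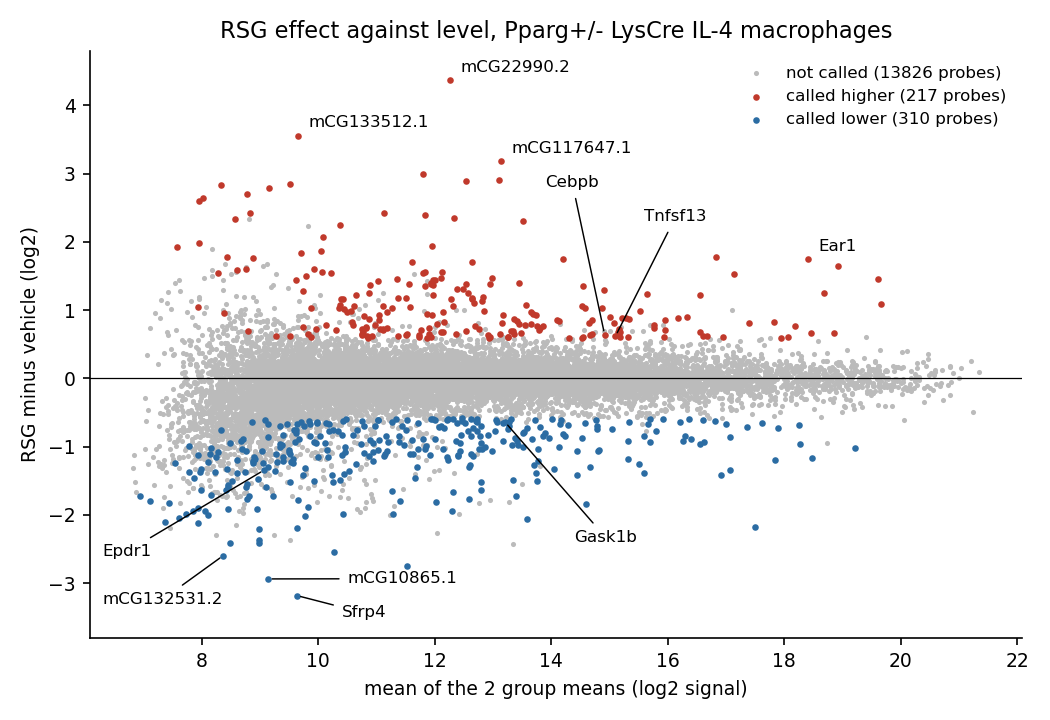
RSG minus vehicle (log2, y axis) against the mean level of the 2 groups (log2 signal, x axis) for each of the 14353 tested probes in Pparg+/- LysCre IL-4 macrophages. Red points are the 217 probes called higher and blue points the 310 called lower; Ear1 lies at high signal, and Sfrp4 has the largest fitted fall.

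The size of most changes was modest. The median called rise was 1.91-fold and the median called fall 2.00-fold, 98 rises and 158 falls were at least 2-fold, and 20 rises and 17 falls at least 4-fold. The median vehicle level (log2 signal) of the called probes was 11.57 for rises and 11.75 for falls, against 12.04 for all probes tested. Of the called probes, 384 were detected on all 8 arrays, 3.38% of the probes detected that widely. Where several probes of the array carry the same gene model, they can be set against each other. Of 793 models with over 1 tested probe, 43 had at least 1 called probe and 15 had at least 2, and in all 15 the called probes moved the same way. In 28 models a single probe was called, and the median change of the model's other probes had the same direction in 25.

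Only a small part of the array could be given gene names. The files pair most probes with Celera gene models (identifiers such as mCG22990.2), and 325 of 33012 probes were matched to a gene symbol, of which 142 were tested. Pparg itself had no matched probe, nor had Fabp4, Cd36, Angptl4 or any of the 17 macrophage markers looked up, so that neither the genotype nor the cell type could be checked on its defining genes. Among the 142 tested probes with a symbol, 7 were called (4.93%), 3 higher and 4 lower, close to the 3.67% over the whole array. Their median change was -0.015 (log2). What can be said of named genes below is therefore a small sample of the response, and no pathway could be measured as a whole.

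Because transcripts that move together are often compared at their promoters, the 250 bases before the transcription start of Ear1, Epdr1 and Gask1b, a called rise and 2 called falls, are shown from RefSeq (GRCm38.p6), 5′ to 3′ on the strand of the gene. Ear1 lies at chr14:43819640-43819889 (minus strand), Epdr1 at chr13:19619831-19620080 (minus strand) and Gask1b at chr3:79885680-79885929 (plus strand). The Gask1b window lies inside the span of its gene (chr3:79884484-79946278), so it precedes a start within that span and not the outer end of the gene. Capitals mark matches to TTNNGNAA on either strand, a core of the sites that C/EBP factors, the family of Cebpb, can bind.
Ear1: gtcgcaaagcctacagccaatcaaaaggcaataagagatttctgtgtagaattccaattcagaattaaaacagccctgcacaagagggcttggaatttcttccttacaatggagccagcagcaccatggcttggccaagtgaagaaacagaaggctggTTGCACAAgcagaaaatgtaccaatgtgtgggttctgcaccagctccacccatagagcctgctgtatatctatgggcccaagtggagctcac
Epdr1: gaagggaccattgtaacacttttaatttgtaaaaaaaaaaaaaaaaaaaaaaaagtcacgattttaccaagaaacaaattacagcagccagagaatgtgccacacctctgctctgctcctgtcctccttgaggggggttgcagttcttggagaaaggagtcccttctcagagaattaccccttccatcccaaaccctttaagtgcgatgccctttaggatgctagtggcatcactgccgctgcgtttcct
Gask1b: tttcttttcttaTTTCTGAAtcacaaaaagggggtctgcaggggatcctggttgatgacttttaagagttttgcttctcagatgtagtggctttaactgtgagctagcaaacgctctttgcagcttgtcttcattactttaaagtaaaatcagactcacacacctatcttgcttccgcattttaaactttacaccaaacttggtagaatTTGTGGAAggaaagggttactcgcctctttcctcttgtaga

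The letters TTNNGNAA were found in the Ear1 window, as TTGCACAA on the opposite strand, and at 2 places in the Gask1b window, TTTCTGAA and TTGTGGAA, and not in those of Epdr1, Cebpb and Tnfsf13. They are common letters, present in 36.8% of the 32851 promoters of this table. AGGTCA, the core hexamer of nuclear receptor sites (14.0% of promoters), AGGNCANAGGNCA, a spaced pair of such hexamers as bound by PPARγ with its partner (0.338%), and TTCNNNNGAA, a STAT6 type of palindrome (5.85%), were found on neither strand in the windows of Ear1, Cebpb, Tnfsf13, Epdr1 and Gask1b. These letters can lie outside the window, and a match is no evidence of binding. Sfrp4 had no entry in the table.

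The genes that rose come first. Ear1 (chr14:43818765-43819639, GRCm38.p6) encodes a secreted RNase of the RNase A superfamily, from a cluster of closely similar genes, and was on the list of IL-4 alternative activation genes. In the vehicle arrays of mice 1 to 4 its log2 signal was 17.65, 17.37, 17.66 and 17.47. In the RSG arrays of the same mice it was 19.21, 19.18, 19.53 and 19.23. The groups lay far apart, the lowest RSG value standing well above the highest vehicle value, and the rise was nearly the same in each mouse, from 1.56 to 1.86 (log2). The change was 1.75 (log2, SE 0.20, n = 4 mice, adjusted p = 0.0031 by limma). The Ear genes are nearly identical in sequence, so that the probe may also read transcripts of other members. Without the mouse as a block the adjusted p was 0.11. The SD of Ear1 among 4 vehicle arrays was 1.22 in fl/- macrophages, which share this fit, and 0.14 in Pparg+/- macrophages, and its part in the lost call was not tested.

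Cebpb (chr2:167688915-167690432, GRCm38.p6) encodes C/EBPβ, a leucine zipper factor of the myeloid and adipocyte lineages. Its called probe read 14.71, 14.54, 14.43 and 14.72 (log2 signal) in the vehicle arrays of mice 1 to 4. The RSG arrays read 15.33, 15.19, 15.15 and 15.28. Each mouse rose by 0.57 to 0.72 and the groups did not overlap. The change was 0.64 (log2, SE 0.074, adjusted p = 0.0031 by limma). A second probe for Cebpb, at 19.35 ± 0.090 (SD, n = 4) with vehicle and 19.52 ± 0.092 with RSG, rose in all 4 mice but by 0.18 (SE 0.070, adjusted p = 0.20) and was not called. The 2 probes thus share a direction and disagree in size. The called probe lost its call with median scaling (0.51) and without the mouse as a block (adjusted p = 0.093).

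Tnfsf13 (chr11:69682577-69685554) encodes APRIL, a cytokine of the TNF family that supports B cells and plasma cells, and was the only other tested member of the alternative activation list. Its log2 signal was 14.97, 14.50, 14.85 and 14.85 in the vehicle arrays of mice 1 to 4. The RSG arrays gave 15.67, 15.42, 15.27 and 15.29. The highest vehicle array was below the lowest RSG array, and the rise was larger in mice 1 and 2 (0.70 and 0.92) than in mice 3 and 4 (0.41 and 0.43). The change was 0.62 (log2, SE 0.10, adjusted p = 0.013 by limma), just above the 1.5-fold threshold. It fell to 0.48 (adjusted p = 0.083) when arrays were scaled on their medians. Without mouse 1 it was 0.59 (adjusted p = 0.057), and without mouse 2 it was 0.51, under the fold threshold. Fitted from the 8 arrays alone, Tnfsf13 had an adjusted p of 0.074 by limma and was not called. Of the 29 genes on the alternative activation list, these 2 had a matched probe and both were called higher, against 1.51% of all probes tested. The list was drawn up with earlier results of these data known, so this contrast is no test of it.

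**Figure D2:**
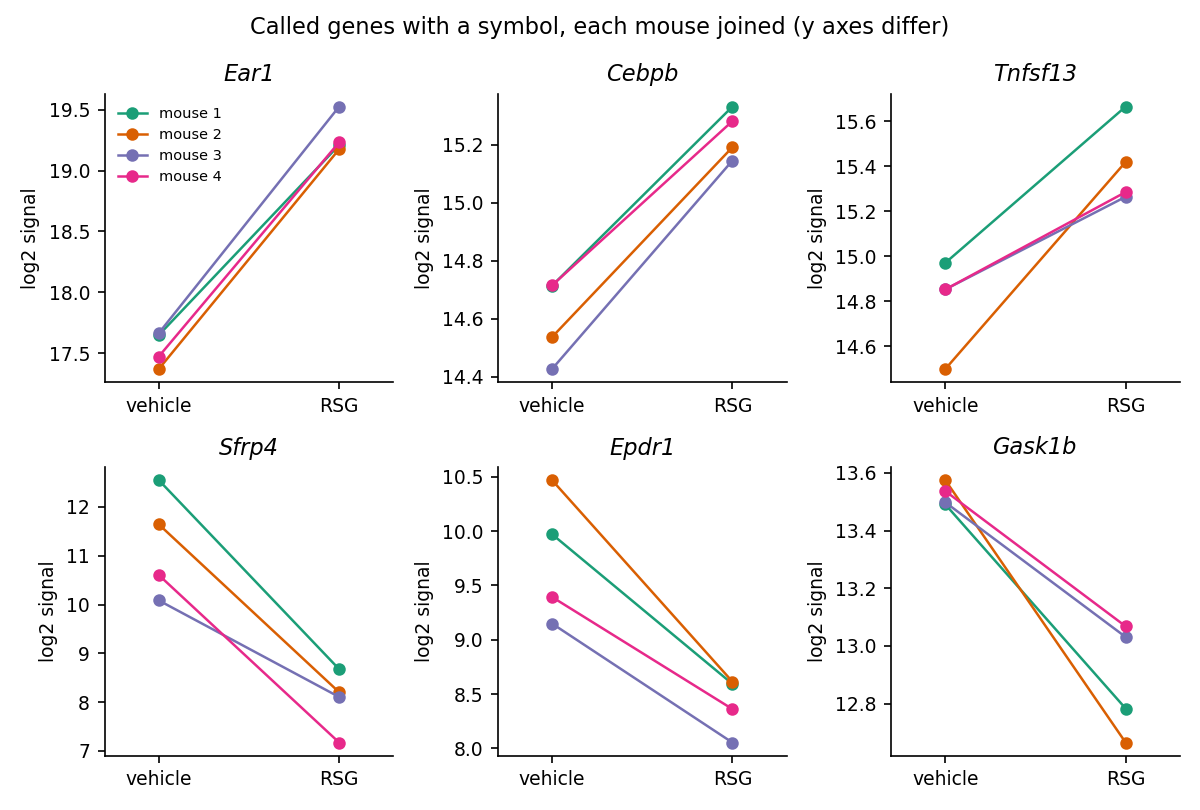
Log2 signal (y axis, scale differs by panel) of the 6 genes with a symbol that were called and whose groups did not overlap, in vehicle and RSG arrays of Pparg+/- LysCre IL-4 macrophages. Each line joins the 2 arrays of 1 mouse: Ear1, Cebpb and Tnfsf13 rose and Sfrp4, Epdr1 and Gask1b fell in all 4 mice.

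Among the genes that fell, Sfrp4 had the largest fitted change. Its log2 signal in the vehicle arrays of mice 1 to 4 was 12.55, 11.64, 10.08 and 10.60, with S/N of 37.6, 39.9, 8.59 and 11.6. In the RSG arrays the signal was 8.68, 8.20, 8.11 and 7.17, with S/N of 1.93, 2.41, 1.82 and 0.52. Sfrp4 was thus detected on all 4 vehicle arrays and not well above background on any RSG array. Its fitted fall of 9.06-fold rests on RSG values below detection, so its size is uncertain. The fitted change was -3.18 (log2, SE 0.42, 95% interval, unadjusted, -4.16 to -2.20, adjusted p = 0.0056 by limma). Vehicle levels themselves spread widely between arrays (SD 1.10), mice 1 and 2 being above mice 3 and 4. These pairs of mice were scanned on different days, so mouse and scan day cannot be told apart in this split. Sfrp4 was placed on a list of fibroblast and stroma markers, and it was the only one of the 10 genes on that list with a matched probe. In bulk cells, fewer cells of a type and less RNA per cell cannot be told apart.

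Epdr1 is the neighbour of Sfrp4 in the genome: on chromosome 13 (GRCm38.p6) Epdr1 spans 19591708 to 19619830 and Sfrp4 19623175 to 19632825, with 3344 bases and no other gene of the table between them. This was noticed after their values were seen. The log2 signal of Epdr1 in the vehicle arrays of mice 1 to 4 was 9.97, 10.47, 9.15 and 9.39. The RSG arrays gave 8.59, 8.61, 8.05 and 8.36. All 4 mice fell, by 1.03 to 1.86, and the groups did not overlap. With vehicle, mice 1 and 2 again stood above mice 3 and 4, which were scanned on another day. The change was -1.34 (log2, SE 0.14, adjusted p = 0.0023 by limma). Epdr1 stayed detected on all 8 arrays, at S/N of 3.00 to 15.5, and is thus a dim probe. Its call was lost when all 32 arrays shared the error (adjusted p = 0.062).

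Gask1b (chr3:79884484-79946278), which encodes a kinase-related protein of the Golgi, was tightly grouped in vehicle arrays at 13.49, 13.58, 13.50 and 13.54 (log2 signal, mice 1 to 4). The RSG arrays read 12.78, 12.67, 13.03 and 13.07. The groups did not overlap, and the fall was 0.71 and 0.91 in mice 1 and 2 and 0.47 in each of mice 3 and 4. The change was -0.64 (log2, SE 0.13, adjusted p = 0.028 by limma), and it lost its call when any 1 of mice 1 to 4 was left out (adjusted p of 0.10 without mouse 1, 0.11 without mouse 2, 0.066 without mouse 3 and 0.064 without mouse 4). The call was also lost without the mouse as a block (adjusted p = 0.10) and when all 32 arrays shared the error (adjusted p = 0.28). It was lost from the 8 arrays alone too (adjusted p = 0.062 by limma). The fourth called fall with a symbol, the transcript 5830415G21Rik, had overlapping groups. It changed by -0.76 (SE 0.18, adjusted p = 0.044), with falls from 0.35 to 1.34 over the 4 mice, and kept its call under 8 of 26 other settings.

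Among calls without overlap between groups, the 3 largest fitted rises belonged to gene models without a symbol. Where a probe was undetected in a group the size of its change is uncertain, so the order by size is that of the fit. The probe for mCG22990.2 was detected on no vehicle array (log2 signal 10.61, 9.28, 9.96 and 10.44 in mice 1 to 4). On the RSG arrays it was detected in every mouse, at 14.21, 14.24, 14.56 and 14.76. Its fitted rise was 20.7-fold (change 4.37, SE 0.51, adjusted p = 0.0031 by limma), of uncertain size since the vehicle values were below detection. The probe for mCG117647.1 was detected on all 8 arrays and was higher in each mouse. It went from 11.55 ± 0.43 to 14.73 ± 0.25 (log2 signal, mean ± SD, n = 4), a 9.11-fold rise (adjusted p = 0.0017). The probe for mCG133512.1, detected on 1 of 4 vehicle arrays and on all 4 RSG arrays, rose by 3.56 (SE 0.57, adjusted p = 0.012), a call that was lost without mouse 1 (3.20) or mouse 2 (3.56). Since 3 of its 4 vehicle values were below detection, the size of this rise is uncertain. Of the falls after Sfrp4, the next in fitted size whose groups did not overlap were mCG10865.1 and mCG132531.2. The model mCG20077.2, named here after its values were seen, lay between them at -2.74 (SE 0.43, adjusted p = 0.011), but its groups overlapped. The level of mCG10865.1 went from 10.61 ± 0.83 to 7.67 ± 0.13 (log2 signal) and that of mCG132531.2 from 9.67 ± 0.75 to 7.07 ± 0.72. Both were detected on all 4 vehicle arrays and on no RSG array. Their fitted falls were 7.66-fold and 6.04-fold (adjusted p of 0.015 and 0.00046 by limma), of uncertain size since the RSG values were below detection. The call of mCG10865.1 was lost without mouse 1 (-2.83), mouse 2 (-2.63) or mouse 4 (-3.03). It was also lost without the mouse as a block, with the scan day as block and with no detection filter (adjusted p of 0.052, 0.064 and 0.069 by limma). Like Sfrp4 and Epdr1, mCG10865.1 was higher in the vehicle arrays of mice 1 and 2 (11.09 and 11.50) than in those of mice 3 and 4 (9.68 and 10.17). This split is also that of the scan days.

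Named genes that were not called help to bound the response; apart from list members, those given here were picked after their values were seen. Among genes of lipid handling, Sgms2, a sphingomyelin synthase and the only tested member of the list of PPAR targets and fatty acid metabolism (45 genes), was higher by 0.33 (log2, adjusted p = 0.091) with a 95% interval, unadjusted, of 0.11 to 0.56, and it was higher in all 4 mice without overlap. Plin3, a coat protein of lipid droplets, differed by 0.062 (-0.16 to 0.28), Aldh3a2, a fatty aldehyde dehydrogenase, by 0.014 (-0.21 to 0.24) and Pemt, which methylates phosphatidylethanolamine, by -0.073 (-0.36 to 0.21). For these 3 genes the intervals exclude a 1.5-fold rise. Hsd17b10, a mitochondrial enzyme of isoleucine and fatty acid breakdown, passed the adjusted p of limma (0.019) but not the fold threshold: it rose by 0.39 (SE 0.072), in all 4 mice and without overlap.

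Some genes of signalling and immunity follow. Jun, a subunit of AP-1 and the only tested member of the stress response list, differed by -0.27 (95% interval -0.47 to -0.075, adjusted p = 0.11). Tlr7, a receptor for RNA in endosomes, differed by -0.27 (adjusted p = 0.11). Stat5a and Stat5b, transducers of cytokine signals, differed by 0.090 (-0.046 to 0.23) and -0.0013 (-0.21 to 0.20). H2-Q7, a class Ib molecule and the only tested gene of the antigen presentation list, differed by -0.034 (-0.24 to 0.17). Nlrp3, the inflammasome sensor, was detected on no vehicle array and on 2 RSG arrays and was not tested. Notum, another secreted inhibitor of Wnt proteins, stood farther off, at -0.89 (adjusted p = 0.11), and was lower in all 4 mice, with overlapping groups. Rnaset2b, a lysosomal RNase with a near-identical copy, and Dynlt1b, a dynein light chain with near-identical copies, passed the adjusted p (0.041 and 0.026) at changes of -0.39 and 0.42, under 1.5-fold. Of the 135 tested probes with a symbol that were not called, 105 lay within 0.3 (log2) of no change.

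Over all, 20 lists with 321 genes were looked up: groups of lipid, cholesterol, nuclear receptor, alternative activation, inflammatory, interferon, antigen presentation, cell cycle and stress genes, and markers of 11 cell types. A matched probe was found for 10 of these genes, and 13 lists had none. Of the 6 list probes tested, 3 were called (Ear1 and Tnfsf13 higher, Sfrp4 lower), against 3.67% of all probes tested, and the median change of the 6 was 0.15 against -0.028 over all probes tested. With median scaling 2 of the 6 were called and their median was 0.017, against -0.188 over all probes. The lists were drawn up with earlier results of these data known, so these contrasts are no test of the lists. The erythroid markers Hba-a1, an alpha globin, and Eraf, its chaperone, were detected on none of the 8 arrays, as was the class Ib gene H2-Q8. Markers of macrophages, dendritic cells, neutrophils, lymphocytes, mast cells, eosinophils, platelets and adipocytes had no matched probe, so that a change in cell makeup was not tested apart from these.

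The number of detected probes was also compared. In the vehicle arrays of mice 1 to 4, 15144, 15918, 15590 and 15433 probes were detected. In the RSG arrays of the same mice, 13959, 15250, 13933 and 13830 were. The number was lower in each of the 4 mice, with the RSG array of mouse 2 inside the vehicle range. The mean change was -1278 probes (SD 458, n = 4 pairs, exact sign-flip test, two-sided, p = 0.13, the smallest p that 4 pairs allow). Without pairing, the exact permutation test gave p = 0.0571 (smallest possible 0.0286). With a threshold of S/N 2 the mean change was -1338, and with S/N 5 it was -1135. Neither test passed 0.05, and the part of detection in the results was not tested. Of the called probes, 184 rises and 200 falls were detected on all 8 arrays.

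**Figure D3:**
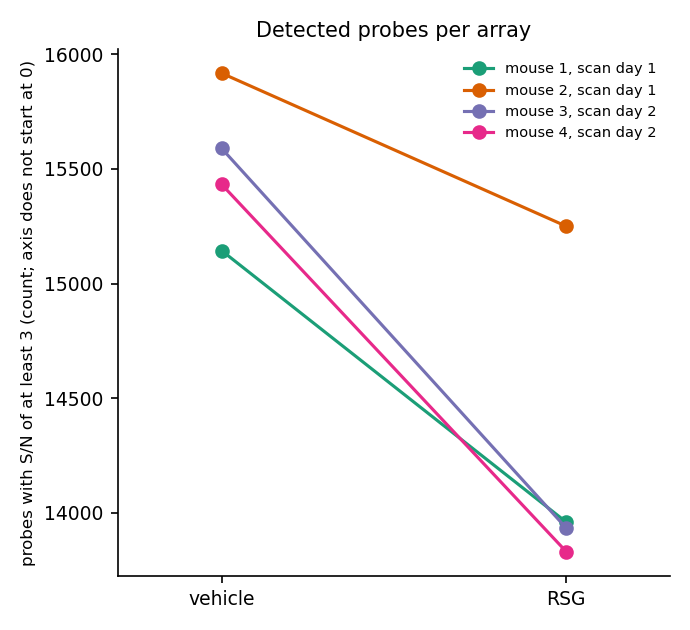
Number of probes with S/N of 3 or more (y axis) in the vehicle and RSG arrays of Pparg+/- LysCre IL-4 macrophages, 1 line per mouse. All 4 lines fall, from 15144 to 15918 with vehicle to 13830 to 15250 with RSG.

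A few probes went from one side of the detection threshold to the other in every mouse. With RSG, 8 probes were detected on all 4 arrays and on no vehicle array, and 48 were detected on all 4 vehicle arrays and on no RSG array. Of these 8 and 48, 5 and 17 were called, where 3.67% of all tested probes were, but they were picked by detection in 1 group and passed the filter through that group, so the share is partly fixed by the choice. The symbols in the second set were Sfrp4 and Ndn, which encodes the growth suppressor necdin. Ndn changed by -0.50 (log2) and was not called. With S/N 2 as the threshold the counts were 4 and 53, and with S/N 5 they were 5 and 46, these thresholds having been chosen after the data were seen. Because the RSG array detected fewer probes than the vehicle array in each of the 4 mice, the larger number of losses cannot be told apart from that difference.

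The response was then set beside RSG in the other cells. The macrophages of Pparg fl/- LysCre mice (mice 5 to 8) had 3 called probes (0.0209%; 1061 at an unadjusted p under 0.05 by limma). The 217 probes that rose in Pparg+/- macrophages had a median change of 0.29 (log2) there and 185 were above 0 (85.3%, against 46.7% of all probes tested). The 310 that fell had a median of -0.30, and 266 were below 0 (85.8%, against 53.3%). The direction was thus mostly shared, at a smaller size. Since these probes were chosen by their change in Pparg+/- macrophages, a smaller median elsewhere is no test of a difference.

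**Figure D4:**
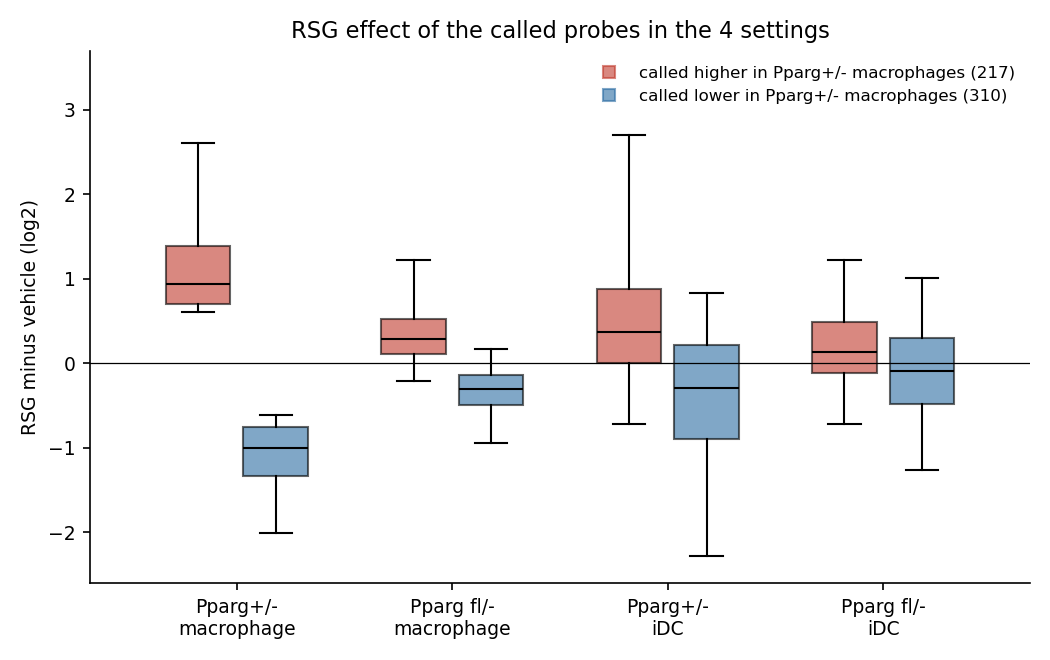
RSG effect (log2, y axis) of the 217 probes called higher and the 310 called lower in Pparg+/- LysCre IL-4 macrophages, in these cells and in the other 3 kinds of cell (x axis), with boxes from the lower to the upper quartile, a line at the median and whiskers from the 5th to the 95th percentile. In the macrophages of fl/- mice the medians were 0.29 and -0.30, and in Pparg+/- iDCs 0.37 and -0.29.

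A test of the difference itself between genotypes called 19 of 14353 probes (0.132%; 1244 at an unadjusted p under 0.05), 8 with a higher and 11 with a lower RSG effect in fl/- cells. This comparison shares the 8 Pparg+/- arrays with the main one. The clearest of them, mCG132531.2, changed by -2.59 in Pparg+/- and by -0.083 in fl/- macrophages (difference 2.51, SE 0.23, adjusted p = 0.033). It stood at 10.01 ± 0.51 with vehicle and 9.93 ± 0.77 with RSG in fl/- macrophages (log2 signal, SD, n = 4), while it was lost below detection in Pparg+/- macrophages with RSG. In iDCs it fell in both genotypes, changing by -1.97 in Pparg+/- and -0.89 in fl/- mice (adjusted p of 6.3e-06 and 0.013 by limma). Of the model mCG4413.2, singled out because it is the only one with both of its probes among the 19, the probes rose by 1.47 and 1.54 in Pparg+/- cells and changed by -0.15 and -0.33 in fl/- cells. The count is fragile: it was 0 to 2 when any 1 mouse was left out, 1 without the mouse as a block and 2 with median scaling.

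The named genes show how far single genes differ between genotypes. For Ear1 the RSG change in fl/- macrophages was 0.76 (log2, adjusted p = 0.36), against 1.75 in Pparg+/- cells (difference -0.99, SE 0.29, adjusted p = 0.34). For Cebpb it was 0.28 against 0.64 (difference -0.36, adjusted p = 0.34). For Epdr1 it was -0.80 against -1.34 (difference 0.54, adjusted p = 0.49). None of these 3 differences passed the test, which does not show that the genotypes respond alike. Sfrp4 was detected on 1 of 4 vehicle arrays of fl/- macrophages, at 7.74 ± 1.67 (log2 signal), and on 1 of 4 RSG arrays, at 7.99 ± 0.59. Its level in fl/- cells with or without RSG was thus as dim as in Pparg+/- cells with RSG, and the fitted difference in the RSG change was 3.43 (SE 0.60, adjusted p = 0.12). As the fl/- values are near the floor, a fall could hardly show in fl/- cells. The genotypes were scanned on different days, so their difference in vehicle level cannot be told apart from scan day.

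In iDCs of the same 4 mice RSG gave 1286 called probes (8.96%). The probes that rose in macrophages had a median change of 0.37 there, with 163 of 217 above 0 (75.1%, against 53.1% of all), and those that fell a median of -0.29, with 202 of 310 below 0 (65.2%, against 46.9%). Of the 217, 66 were called higher and 10 lower in iDCs, and of the 310, 87 were called lower and 19 higher. In iDCs of fl/- mice, with 440 called probes (3.07%), the medians were 0.14 and -0.085. The difference in RSG effect between iDCs and macrophages of Pparg+/- mice was called for 1108 probes (7.72%), 617 with a higher and 491 with a lower effect in iDCs. This count fell to 653 without mouse 2. With median scaling it was 1625, of which 1423 were higher and 202 lower.

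Ear1 also rose in iDCs. From 14.98 ± 0.63 with vehicle to 17.79 ± 0.37 with RSG (log2 signal, SD, n = 4), its change in Pparg+/- iDCs was 2.81 (SE 0.23, adjusted p = 2.1e-06 by limma). In fl/- iDCs it was 2.29 (adjusted p = 0.00017). The change was larger in iDCs than in macrophages of Pparg+/- mice by 1.06 (SE 0.33, adjusted p = 0.052), which missed the threshold. In the order of levels, Pparg+/- macrophages with RSG stood first (19.29 ± 0.16). Pparg+/- iDCs with RSG (17.79 ± 0.37), Pparg+/- macrophages with vehicle (17.54 ± 0.14) and fl/- iDCs with RSG (17.15 ± 0.45) followed, neighbours in this order lying within their spread. Macrophages of fl/- mice with RSG (16.17 ± 0.91) and with vehicle (15.42 ± 1.22) and the vehicle iDCs of both genotypes (14.98 ± 0.63 and 14.87 ± 0.35) stood last, with no step between neighbours beyond their spread. Vehicle-treated Pparg+/- macrophages thus held more Ear1 signal than any other vehicle group, and RSG added to it. The fl/- arrays were scanned on other days than the Pparg+/- arrays, so differences in level between genotypes cannot be told apart from scan day.

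**Figure D5:**
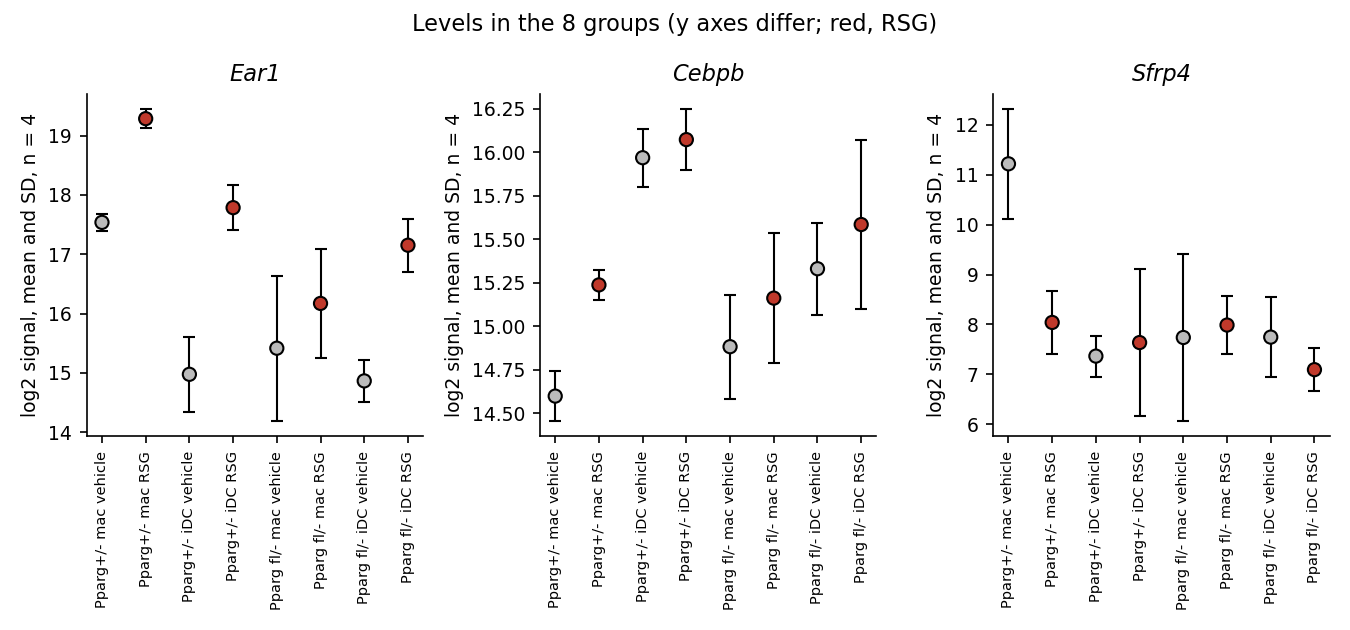
Log2 signal (y axis) of Ear1, Cebpb and Sfrp4 in the 8 groups of the series (x axis), with points for group means, bars for the SD (n = 4 arrays) and red for RSG. The mean of Ear1 is higher with RSG in all 4 pairs of groups, and Sfrp4 has its highest mean, 11.22, in vehicle-treated Pparg+/- macrophages.

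The RSG effects of named genes in iDCs were set beside those in macrophages, with limma's test of the difference. The called probe of Cebpb changed by 0.10 in Pparg+/- iDCs (adjusted p = 0.52), 0.53 less than in macrophages (difference -0.53, SE 0.14, adjusted p = 0.025), from a vehicle level that was higher in iDCs (15.97 ± 0.17) than in macrophages (14.60 ± 0.14). The second probe of Cebpb did not show this: it rose by 0.31 in iDCs (adjusted p = 0.014) against 0.18 in macrophages (difference 0.13, adjusted p = 0.49). Sfrp4 was not detected on any vehicle array of Pparg+/- iDCs (7.36 ± 0.41) and changed by 0.27 (difference 3.45, SE 0.81, adjusted p = 0.014). A probe below detection with vehicle could not show a fall in iDCs, so this difference does not compare 2 measured responses. Epdr1, detected on 1 of 4 vehicle arrays and 2 of 4 RSG arrays of iDCs, changed by 0.88 there (adjusted p = 0.14) against -1.34 in macrophages (difference 2.22, SE 0.57, adjusted p = 0.022), and with vehicle values mostly below detection it too had little room to fall.

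Among the unnamed models, mCG117647.1 rose 9.11-fold in macrophages and changed by -0.24 in Pparg+/- iDCs (difference -3.42, SE 0.62, adjusted p = 0.0032), though detected on all 4 arrays of both iDC groups. The probe for mCG133512.1 changed by -1.22 in iDCs, where it was detected on 1 vehicle array and no RSG array (difference -4.77, SE 0.65, adjusted p = 0.00051), so its iDC value too is largely a floor. By contrast mCG22990.2 was undetected with vehicle and detected on all 4 arrays with RSG in Pparg+/- iDCs too, where the fitted change was 2.56 (adjusted p = 0.00081), whose size is limited by the undetected vehicle values. In fl/- cells it was detected with RSG on 2 of 4 macrophage arrays and 1 of 4 iDC arrays. The falling models mCG10865.1 and mCG132531.2 were detected on all 4 arrays of each Pparg+/- iDC group. They changed by -1.60 and -1.97 there (adjusted p of 0.017 and 6.3e-06 by limma). Neither difference from macrophages was called (adjusted p of 0.17 and 0.15), though the macrophage RSG values were below detection. In fl/- iDCs they changed by -1.81 and -0.89 (adjusted p of 0.023 and 0.013). Gask1b changed by -1.41 in Pparg+/- iDCs (adjusted p = 0.0064), and the difference from macrophages was -0.77 (adjusted p = 0.30). It was detected on 2 of 4 RSG arrays there, so the size of its fall in iDCs is uncertain. In fl/- iDCs, where it was detected on 1 vehicle and 2 RSG arrays, it changed by 0.89 (adjusted p = 0.13 by limma).

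Mice 1 and 2 were scanned on one day and mice 3 and 4 on another, and each day holds both treatments. The fl/- mice 5 to 8 were scanned on other days, so that genotype and scan day cannot be told apart. The median change of the probes called higher was 0.825, 1.11, 0.903 and 0.948 (log2) in mice 1 to 4, and that of the probes called lower was -1.02, -0.982, -0.929 and -0.961. These probes were called for changing alike in the same 4 mice, so that similar medians are partly fixed by the choice. Within days, Ear1 rose by 1.68 and 1.81, Cebpb by 0.64 and 0.64 and Tnfsf13 by 0.81 and 0.42, while Sfrp4 changed by -3.66 and -2.70 and Epdr1 by -1.62 and -1.06. With 2 mice a day no probe passed the adjusted p of limma (1932 and 1861 at an unadjusted p under 0.05). The arrays of a group correlated at 0.964 to 0.985 (Pearson's r across probes, which are not independent replicates).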

How the data were processed

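RNA of each culture was labelled with digoxigenin and read on Applied Biosystems chemiluminescence 1-colour arrays. Per the file headers, the deposited scanner tables give each probe's signal (intensity, linear scale), a signal-to-noise score (S/N), a version of the signal scaled per array and flags, and a series table made by the authors holds the signal as a ratio to a per-array value. Software versions and background correction are not given in the sources used here. Where S/N was 1 or less, 99.871% of signals equalled their own noise estimate (within 0.01), so dim values are a floor.

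The log2 signal was quantile normalized over the 32 arrays. RSG effects were fitted with limma 3.58.1 (R 4.3.3) over the 16 macrophage arrays with the mouse as a block, p-values being adjusted over the 14353 tested probes by Benjamini-Hochberg. RSG in iDCs and its difference from macrophages were fitted over all 32 arrays. The fit was tested on simulated data, where it recovered 64.5% of 200 probes changed by 1 (log2), against 45% without the block, with 3 and 0 false calls. For the genotype difference it recovered 47% with 8 false calls, against 21.5% and 0. The pairing comes from the labels, which name the mouse of each array, and deviations of same-mouse arrays from their group means correlated at 0.00402 to 0.54 (median of different mice -0.15).

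Genes named are from called probes whose groups did not overlap and that changed one way in all mice: those with 1 symbol, and the 3 largest rises and 3 largest falls of any kind, by the files' identifier where they have no symbol. Called list members were added. Symbols came from RefSeq (GRCm38.p6; 317 probes) or an accession column of the study's supplement (8 probes), and 27930 probes carry gene models that the tables used here do not pair with names. Members and lists were chosen with earlier results of these data known. The methods' threshold (adjusted p under 0.05, 1.5-fold) was stated for arrays of another maker. Alternatives covered scaling, deposited values, filters, thresholds, blocks, scan days, left-out mice and the methods' t-test. Python 3.11.15 drew the figures.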

Additional observations from a re-analysis of the deposited data

Results flagged for a closer look

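Within groups of 4 arrays, a value was set apart where its gap to the nearest other array was too large a part of the group's range (Dixon's 95% value), a rule that chance meets in about 1 in 20 of the 34 groups examined. It was met by Ear1 in the RSG array of mouse 3 (19.53, log2 signal), by Rnaset2b in the vehicle array of mouse 2 (17.56) and by the number of detected probes in the RSG array of mouse 2 (15250). Ear1 was thus highest where it was set apart, and its rise stood in each of the other mice.

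Between genotypes, 19 probes were called for a different RSG effect, among them mCG132531.2 (fl/- minus +/- macrophages 2.51, log2). Between cell types there were 1108. The named ones were 1 of 2 probes of Cebpb (-0.53, iDC minus macrophage; the other, 0.13, was not called), Sfrp4 (3.45), Epdr1 (2.22), mCG133512.1 (-4.77), mCG117647.1 (-3.42) and the transcript 5830415G21Rik (-0.70), all by limma's test of the difference. Sfrp4 and mCG133512.1 were detected on at most 1 array of either group of Pparg+/- iDCs, so their iDC values are near the floor, and Epdr1 on 1 vehicle and 2 RSG arrays of Pparg+/- iDCs.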

How the results depend on the processing

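For the 16 probes run under all 26 settings (the 12 named calls, the other probe of Cebpb, Hsd17b10, Rnaset2b and Dynlt1b), the RSG effect in Pparg+/- macrophages kept its direction, and other uncalled genes were not run. This was mostly fixed in advance. Filters, thresholds, blocks and the choice of other arrays leave the estimated change as it was. The 16 probes also changed one way in all 4 mice, so leaving out a mouse or splitting by scan day could not reverse them. Only settings that alter the values themselves, such as median scaling, could have done so. However, the counts of calls, and at times their balance, depend on the settings. The 527 calls for RSG became 180 with no detection filter (33012 probes tested), 897 with no fold threshold, 256 at 2-fold, 315 from the 8 arrays alone and 237 by the methods' t-test once adjusted (126 higher, 111 lower; 757 unadjusted). Without the mouse as a replicate block they were 237, of which 229 were among the 527, and blocking on the scan day gave 262. Within scan day 1 and scan day 2 there were 0 and 0 (1932 and 1861 at an unadjusted p under 0.05 by limma), at 2 pairs each. Leaving out 1 mouse gave 358 to 401 for mice 1 to 4, which are compared, and 477 to 521 for mice 5 to 8, which add to the error. Of the 12 named calls, 6 remained with no filter, 7 without the replicate block, 7 with the scan-day block, 7 with the adjusted t-test, 0 within either day, and 7 to 10 with 1 of mice 1 to 4 left out (11 for each of mice 5 to 8). From the 8 arrays alone 9 remained, Tnfsf13, Gask1b and 5830415G21Rik having lost their calls.

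The 19 genotype differences became 2 with median scaling and with the deposited ratio table, 0 with no filter and with a filter over all 8 groups, 12 at 2-fold (7 higher, 5 lower), 35 from all 32 arrays, 1 without the replicate block, 2 with the scan-day block and 0 to 2 with 1 mouse left out. The 1108 cell-type differences became 1625 with median scaling (1423 higher, 202 lower), 1626 with the ratio table, 723 with no filter, 570 at 2-fold, 469 without the replicate block, 573 with the scan-day block, 0 within either day and 653 to 1145 with 1 mouse left out. The median of the 6 list probes (0.15) was 0.017 with median scaling and 0.27 with no filter, which adds list probes. Cebpb (0.51) and Tnfsf13 (0.48) lost their calls with median scaling, Ear1 lost its call without the block, Epdr1 and Gask1b from all 32 arrays (adjusted p = 0.062 and 0.28), Gask1b also without the block (adjusted p = 0.10), and Sfrp4, Epdr1 and mCG132531.2 by the adjusted t-test. The call of mCG10865.1 was lost without the block, with the scan-day block and with no filter (adjusted p of 0.052, 0.064 and 0.069 by limma). The cause was not tested. Signal over background limits Sfrp4, Epdr1 and the dim gene models, and 4 mice limit all of it.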

Other observations

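Among genes with a symbol and no call, singled out after their values were seen, Heg1, an endothelial junction protein, differed by -1.34 (log2, adjusted p = 0.082 by limma) and Acyp2, an acylphosphatase, by -0.46 (adjusted p = 0.059). Ntn1, the guidance cue netrin-1, differed by -0.47 (adjusted p = 0.10), and Dhrs7b, a peroxisomal enzyme of ether lipid synthesis, by 0.29 (adjusted p = 0.074, 95% interval 0.11 to 0.46). Of the probes with a symbol that were not tested, 119 were detected on none of the 8 arrays.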
